A study of Homo sapiens with 4 samples.

Results

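The chloride channel genes examined here were the 5 LRRC8 genes, LRRC8A to LRRC8E, and the 4 anoctamin genes ANO1, ANO2, ANO6 and ANO10. They were chosen by name for their function, with earlier results of these data known. Their probes were found through the RefSeq accession that each probe name carries. This matched 8 of the 9 genes, with 24 of the 71998 probes on the array, and 8 of the 17217 genes that could be named in all. ANO2 had no matched accession and is not analysed here. All samples were untreated HEK293 cells, a human embryonic kidney line transformed with adenovirus DNA and here grown in DMEM with serum. The 4 arrays held RNA from 4 replicate cultures, described as separate plates with separate RNA extractions, so there was a single group and no treated or mutant group to set against it.

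LRRC8 proteins form the volume-regulated anion channel (VRAC), which opens when a cell swells and lets chloride and organic osmolytes leave so that the cell can shrink back. LRRC8A is the obligatory subunit, and it assembles with one or more of LRRC8B to LRRC8E, which set what the channel passes. Anoctamins, also called TMEM16 proteins, include chloride channels gated by intracellular calcium and scramblases that move phospholipids between the leaflets of a membrane. HEK293 cells are a common host for cloned subunits of both families, and their own swelling-activated current is well known.

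The values were log2 probe intensities. On each array a baseline was set as the study did, at the mean plus 2 SD of seminal protein genes taken to stand for zero expression, and every gene was expressed as its distance to that baseline in log2 units. Genes with a positive mean distance over the 4 arrays were taken as detected. The baseline was 10.10 ± 0.52 log2 units (SD, n = 4), and it lay at 9.47, 9.94, 10.69 and 10.32 on replicates 1 to 4. Reference genes such as ACTB were detected in 12 of 12 cases, and genes that mark blood, endothelial, liver, heart and stromal cells in 0 of 10. Of 8 genes associated with HEK293 cells 7 were detected, among them VIM, KRT8 and NEFL, while PAX2 was at -1.63 ± 0.74 (SD, n = 4). The neurofilament gene NEFM was above the baseline on replicates 1 and 3, reaching 4.10 on replicate 1, and at -1.62 and -2.24 on replicates 2 and 4, so the arrays were not alike in all respects. Probes differ in affinity, and a larger distance of one gene than of another is therefore no measure of how much more transcript a cell held.

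HEK293 cells gave signals above the baseline for all 5 LRRC8 genes and for ANO6 and ANO10, and below it for ANO1. Thus 7 of the 8 matched genes (87.5%) were detected, against 52.7% of all named genes, and the same 7 lay above the baseline on each of the 4 arrays, against 45.0% of all genes. The limma test described with LRRC8A called these 7, and 45.9% of all genes. The median distance of the 8 genes was 1.61 log2 units, and that of all genes 0.26. These members were picked for their function, and the shares over all genes are given only as the background.

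**Figure D1:**
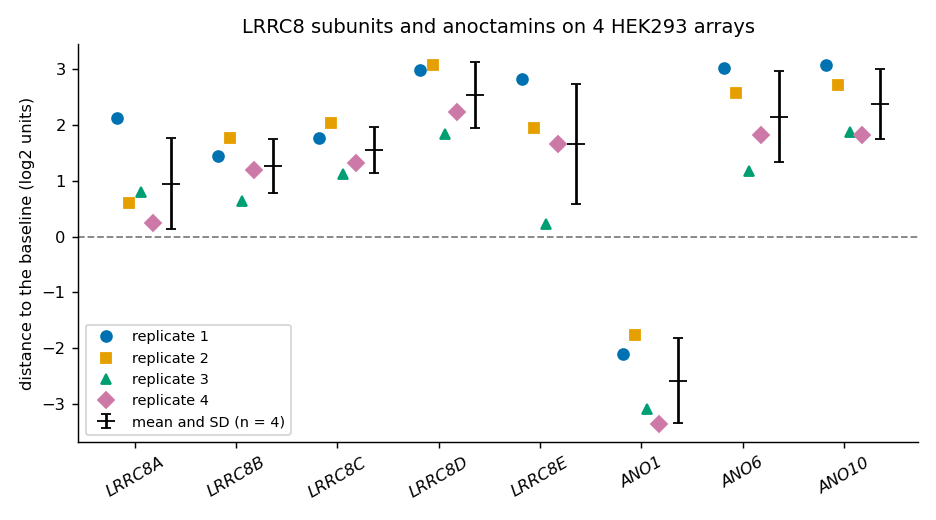
Distance to the baseline (log2 units, vertical axis) of the 8 matched genes on replicates 1 to 4 (symbols), with the mean and SD over the 4 arrays (black bars). The 5 LRRC8 genes, ANO6 and ANO10 lie above the dashed baseline on every array, from 0.23 to 3.07, and ANO1 lies below it on every array, from -3.36 to -1.77.

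LRRC8A, the subunit that every VRAC needs, was the nearest to the baseline of the detected members. Its log2 levels were 11.59, 10.54, 11.49 and 10.57 on replicates 1 to 4, and its distances 2.12, 0.60, 0.80 and 0.25. Replicate 1 was thus far above the other arrays in distance, while in level replicates 1 and 3 were high and replicates 2 and 4 low, with no overlap. The mean distance was 0.94 ± 0.81 log2 units (SD, n = 4), little more than the spread between arrays. A one-sided limma test of the distances against 0 gave an adjusted p of 0.0084 over all 17217 genes. It used the same standard error for every gene, 0.351, and not the spread of LRRC8A itself. Without replicate 1 the distance was 0.55 and the limma adjusted p 0.114, so the call by this test rested on that array. On replicates 1 and 3 alone the distance was 1.46, and on replicates 2 and 4 alone 0.43. LRRC8A was the only one of the 8 members whose level on both of replicates 2 and 4 was under that on both of replicates 1 and 3, a pattern shown by 22.2% of all genes. In distance, too, it was the only such member, against 13.7% of all genes. The mean level on replicates 2 and 4 minus that on replicates 1 and 3 was -0.98 for LRRC8A and -0.16 for ANO10, and from 0.08 for ANO1 to 0.48 for LRRC8B among the other 6 members.

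LRRC8B, LRRC8C and LRRC8D lie close together on chromosome 1, where LRRC8C and LRRC8D are adjacent and only LOC128092251 is annotated as a coding gene between LRRC8B and LRRC8C. LRRC8B had distances of 1.45, 1.77, 0.64 and 1.19 on replicates 1 to 4, with a mean of 1.26 ± 0.48 (SD, n = 4). It was lowest on replicate 3, where it still exceeded the baseline. LRRC8C, which with LRRC8A forms a channel well known from swelling-activated currents, had distances of 1.76, 2.03, 1.12 and 1.32, with a mean of 1.55 ± 0.41 (SD, n = 4). Its arrays differed least of all the detected members in distance. LRRC8D, the subunit linked to the passage of uncharged osmolytes and of the drug cisplatin, had distances of 2.98, 3.07, 1.84 and 2.24. Its mean of 2.53 ± 0.59 (SD, n = 4) was the largest of any member. The limma adjusted p was 4.2e-04 for LRRC8B and lower for LRRC8C and LRRC8D.

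LRRC8E, a subunit whose presence makes VRAC inactivate faster at positive voltages, had distances of 2.83, 1.94, 0.23 and 1.65 on replicates 1 to 4. Replicate 3 was far below the others, and the mean was 1.66 ± 1.08 (SD, n = 4), the widest spread of any member. All 3 probes had their smallest distance on replicate 3, at -0.24, 0.55 and 0.27, where the baseline was the highest. In level the first probe alone was far lower there. It read 13.35, 12.93 and 13.04 log2 units on replicates 1, 2 and 4 and 10.45 on replicate 3, whereas the other probes of LRRC8E ran from 10.76 to 11.31 and from 10.62 to 11.04 over the 4 arrays. Without that probe, an alternative chosen after its values were seen, LRRC8E was at 0.86 ± 0.59 (SD, n = 4, limma adjusted p = 0.0161), about as near the baseline as LRRC8A.

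Among the anoctamins, ANO6 and ANO10 were above the baseline and ANO1 was not. ANO6, or TMEM16F, is the calcium-activated phospholipid scramblase whose loss causes the bleeding disorder Scott syndrome, and it also passes ions. Its distances were 3.01, 2.57, 1.17 and 1.82 on replicates 1 to 4, with a mean of 2.14 ± 0.81 (SD, n = 4). ANO10, or TMEM16K, is a scramblase of the endoplasmic reticulum whose mutation causes a recessive ataxia. Its distances were 3.07, 2.71, 1.87 and 1.82, with a mean of 2.37 ± 0.62 (SD, n = 4). In distance both genes were higher on replicates 1 and 2 than on replicates 3 and 4, without overlap, a pattern shown by 55.3% of all genes. Their log2 levels ran from 11.86 to 12.51 for ANO6 and from 12.14 to 12.65 for ANO10, and limma adjusted p-values were 1.9e-09 and 3.1e-11.

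ANO1, or TMEM16A, is the classical calcium-activated chloride channel of secretory epithelia and smooth muscle. Its log2 levels were 7.37, 8.17, 7.60 and 6.96 on replicates 1 to 4, and its distances -2.10, -1.77, -3.09 and -3.36. The mean of -2.58 ± 0.76 (SD, n = 4) was below the baseline by more than the spread between arrays. ANO1 lay below the baseline on all 4 arrays, as did 39.8% of all genes. None of its 3 probes reached the baseline on any array. By mean level 339 of 364 olfactory receptor genes lay below ANO1, whereas all 364 lay below each of the other 7 members. Of the 10 control genes 2 lay above ANO1, SPATA5 at 9.97 and SPATA13 at 9.72 log2 units, and 0 above any other member. All other controls lay below ANO1, whose mean level was 7.52, the highest being SPATA4 at 7.25. Without SPATA5 and SPATA13 the baseline was 7.78 log2 units in place of 10.10. ANO1 was thus in the upper part of the olfactory receptor genes, and within the range of the controls only through SPATA5 and SPATA13.

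The order of the mean distances was LRRC8D, ANO10, ANO6, LRRC8E, LRRC8C, LRRC8B, LRRC8A and ANO1. Neighbouring detected members differed by 0.11 to 0.48 log2 units. Taken within each array, where the baseline cancels, ANO10 exceeded ANO6, ANO6 exceeded LRRC8E and LRRC8C exceeded LRRC8B on all 4 arrays, by 0.23 ± 0.32, 0.48 ± 0.37 and 0.29 ± 0.14 (SD, n = 4 for each). The first of these gaps was smaller than its spread. The gaps of LRRC8D over ANO10, LRRC8E over LRRC8C and LRRC8B over LRRC8A were positive on 2 arrays each and smaller than their spread. Probes differ between genes, so these gaps order the signals of these probes only. The step from LRRC8A down to ANO1 was 3.52. Ranked among the 17217 genes, the median percentile over the 4 arrays was 75.9 for LRRC8D, 74.9 for ANO10, 72.1 for ANO6, 67.2 for LRRC8E, 65.3 for LRRC8C, 61.3 for LRRC8B, 57.0 for LRRC8A and 22.2 for ANO1. The ranks, which use no baseline, gave the same order, but it changed with the median of the 3 probes in place of their mean. LRRC8B was then at 0.75, LRRC8E at 1.04, LRRC8A at 1.14 and LRRC8C at 1.69, so that LRRC8B was the lowest detected member and LRRC8E came under LRRC8A.

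Much of the spread in the distances was shared. For 7 of the 8 members, all but LRRC8A, both of replicates 3 and 4 had a smaller distance than both of replicates 1 and 2. The same held for 55.3% of all genes, and the baselines of replicates 3 and 4 were the higher ones. The deposited values of replicates 1 and 2 and those of replicates 3 and 4 also had nearly the same distribution within each pair, and the part of this in the pattern was not tested. In the levels before subtraction the pattern was shown by 1 member, ANO6, and by 18.3% of all genes. The median SD of the 8 members over the arrays was 0.33 log2 units for the level and 0.69 for the distance, against 0.42 and 0.63 for all genes. All 7 detected members had a positive mean distance on replicates 1 and 2 alone and on replicates 3 and 4 alone, which ran from 1.36 to 3.02 and from 0.53 to 2.04.

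Each of the 8 genes was measured by 3 probes, which allowed the calls to be looked at probe by probe. By their mean distance 21 of the 24 member probes (87.5%) lay above the baseline, against 43.2% of all probes, and the other 3 were those of ANO1. The probes of a gene spanned from 0.36 log2 units for LRRC8C to 1.68 for LRRC8B, and the median span of all named targets lay between these values, above those of 6 of the 8 members. In LRRC8B the first probe averaged 12.19 and the others 10.50 and 10.72. Without the first probe LRRC8B was at 0.51 ± 0.29 (SD, n = 4), where limma gave an adjusted p of 0.150, so that its call by the test depended on it. In LRRC8A the probes averaged 10.44, 10.84 and 11.48, and without the last the distance was 0.65 ± 0.73 (SD, n = 4, limma adjusted p = 0.071). The second LRRC8A probe was lowest on replicate 3, at 10.18, where the other 2 probes read 11.56 and 12.13, so the high level of replicate 3 was not common to the 3 probes. For LRRC8C, LRRC8D, ANO6 and ANO10 the distance stayed between 1.47 and 2.81 whichever probe was left out.

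**Figure D2:**
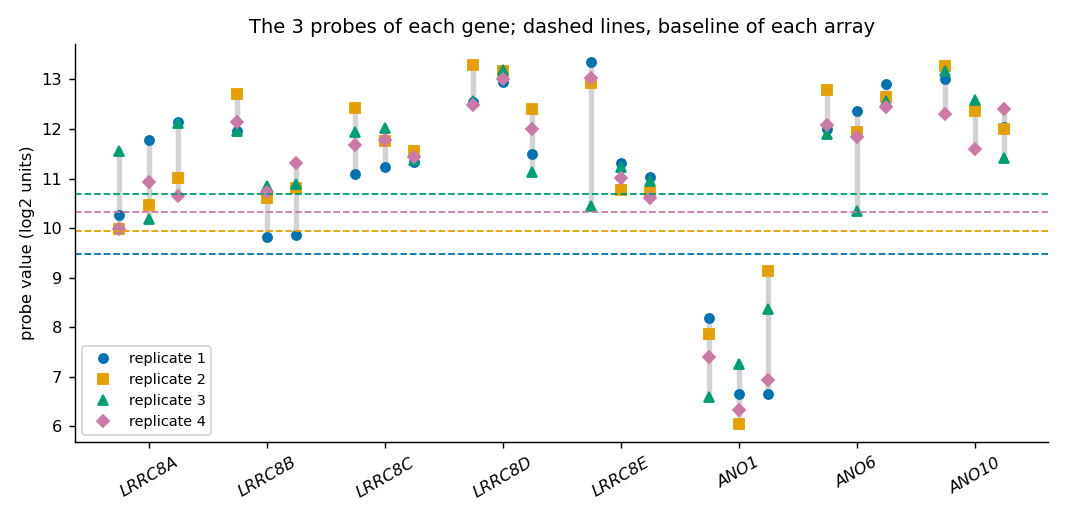
Value of each of the 3 probes of every matched gene (log2 units, vertical axis) on replicates 1 to 4 (symbols), with grey bars for the range and dashed lines for the baseline of each array in the colour of its replicate. The 3 probes of ANO1 lie under every baseline, the first LRRC8E probe is at 10.45 on replicate 3 and 12.93 to 13.35 on the others, and the first LRRC8B probe averages 12.19 against 10.50 and 10.72 for the others.

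How high the baseline was placed decided the calls of the weaker LRRC8 subunits. With 3 SD in place of 2 SD, LRRC8A fell to -0.37 and LRRC8B to -0.06, which left 5 of the 8 members detected and 2, LRRC8D and ANO10, past the limma threshold. With lower baselines, which came from 1 SD, from olfactory receptor genes, from the median of the controls or from leaving SPATA5 (now AFG2A) and SPATA13 out of them, the same 7 members were detected. The mean distance of ANO1 stayed below 0 with each of these baselines. It came nearest without SPATA5 and SPATA13, at -0.25 (SD over the arrays 0.62), and was -0.50 with olfactory receptor genes (SD 0.63). These distances were smaller than the spread between arrays, so ANO1 was not clearly below those baselines.

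**Figure D3:**
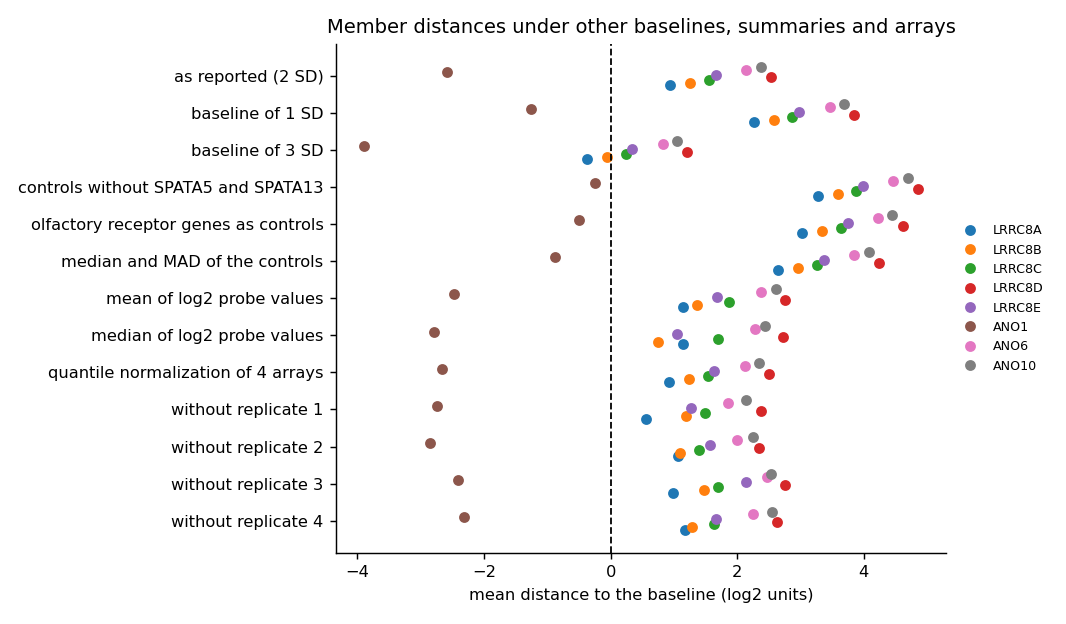
Mean distance to the baseline (log2 units, horizontal axis) of the 8 matched genes (colours) as reported and under other baselines, probe summaries and sets of arrays (rows). ANO1 is negative in every row, LRRC8A and LRRC8B are negative only with the baseline of 3 SD, at -0.37 and -0.06, and the other 5 genes are positive in every row.

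The region before the start of these genes was then examined as a feature that the choice of members had not used. RefSeq windows of 300 bases on GRCh38.p14, which reach from 250 bases before to 50 after an annotated start, were held for all 9 genes, 13 windows in all. CG dinucleotides are frequent in the promoters of widely used genes. The windows of detected genes on the array held a median of 26 CG, and those of genes not detected 11. The 10 windows of the 7 detected members held a median of 28.5, from 2 in ANO6 to 43 in LRRC8C, and 7 of the 10 had at least 20, against 68.9% of windows of all detected genes and 35.0% of those not detected. ANO1, which was not detected, had 36, more than 83.2% of windows on the array, and ANO6, which was detected, had 2, more than 5.87%. The windows of ANO1 and ANO6 were thus unlike the medians of undetected and detected genes. The windows of ANO1, ANO6 and LRRC8C start downstream of the first base annotated for the gene. For ANO2 and ANO10, which have a pair of windows each, the window with more CG also lies downstream of the other. Which start HEK293 cells use was not tested.

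The 250 bases before the start are printed for LRRC8A as the obligatory subunit, LRRC8D as the detected member with the largest distance, ANO10 as a detected anoctamin and ANO1 as the member not detected, 5′ to 3′ along the gene, with every CG in capitals. For LRRC8A, LRRC8D and ANO10, which have more than 1 window, the window with more CG is shown. In ANO10 this is the downstream window, with 34 CG over its 300 bases, and the upstream window, not printed, held 15.
LRRC8A, chr9:128881883-128882132, plus strand: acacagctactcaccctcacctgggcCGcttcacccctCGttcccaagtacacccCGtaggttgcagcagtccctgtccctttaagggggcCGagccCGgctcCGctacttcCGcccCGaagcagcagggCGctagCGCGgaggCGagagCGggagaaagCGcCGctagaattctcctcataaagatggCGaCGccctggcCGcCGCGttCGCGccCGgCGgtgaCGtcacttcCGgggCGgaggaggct
LRRC8D, chr1:89820782-89821031, plus strand: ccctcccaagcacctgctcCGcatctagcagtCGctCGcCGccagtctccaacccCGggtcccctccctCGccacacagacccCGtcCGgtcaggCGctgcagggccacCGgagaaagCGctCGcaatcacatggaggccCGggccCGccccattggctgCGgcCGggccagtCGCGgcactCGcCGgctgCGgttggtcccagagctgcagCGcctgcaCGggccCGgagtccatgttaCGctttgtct
ANO10, chr3:43622012-43622261, minus strand: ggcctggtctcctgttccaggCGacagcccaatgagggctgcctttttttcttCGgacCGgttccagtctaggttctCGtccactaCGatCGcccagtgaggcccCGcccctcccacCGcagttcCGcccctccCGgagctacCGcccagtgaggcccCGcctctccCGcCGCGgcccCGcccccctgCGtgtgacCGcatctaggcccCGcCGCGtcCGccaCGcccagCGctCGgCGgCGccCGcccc
ANO1, chr11:69985657-69985906, plus strand: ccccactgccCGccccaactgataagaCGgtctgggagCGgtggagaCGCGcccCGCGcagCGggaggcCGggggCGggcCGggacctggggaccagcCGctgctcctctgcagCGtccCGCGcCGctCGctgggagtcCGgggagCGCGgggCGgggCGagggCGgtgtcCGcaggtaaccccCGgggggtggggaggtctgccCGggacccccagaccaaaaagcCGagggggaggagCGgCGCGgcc
These stretches held 27 CG in LRRC8A, 25 in LRRC8D, 28 in ANO10 and 30 in ANO1. Searched on both strands over the whole 300 bases, the GC box GGGCGG was found in 10 of the 13 member windows. Its share was 45.0% of all promoter windows, and 57.4% of those of named genes on the array. The GC box was in 8 of the 10 windows of detected members and in 67.3% of those of all detected genes. The TATA box TATAAA was found in 2 windows, those of ANO6 and of 1 of the pair of ANO2 windows, and in 11.5% of all. The CCAAT box CCAAT was found in 3 member windows, of LRRC8B, LRRC8D and ANO10, and in 34.6% of all. The ETS core CCGGAAG was found in 1, of LRRC8A, and in 10.3% of all. GGGCGG and CCGGAAG each contain a CG, and a match is a description of the letters only.

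**Figure D4:**
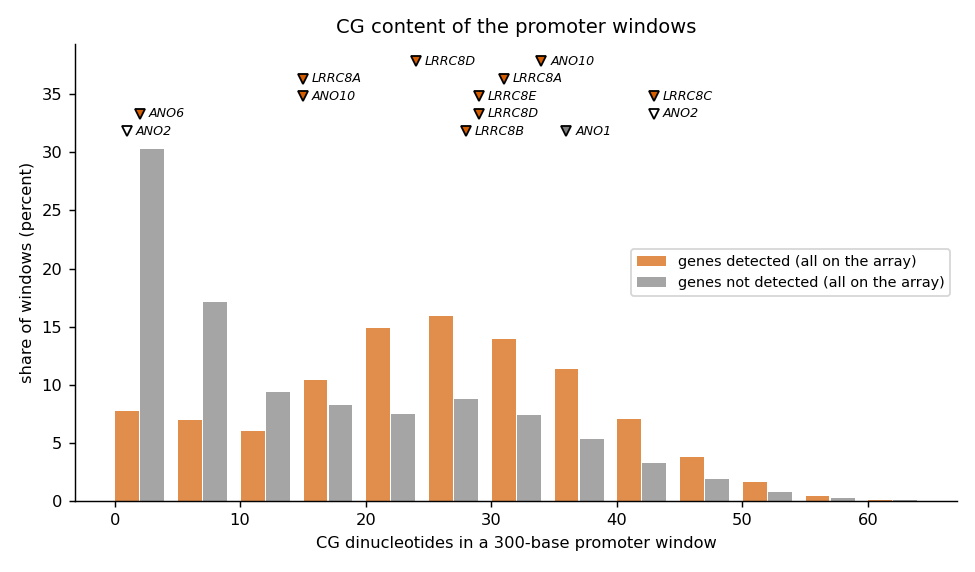
Number of CG dinucleotides in a 300-base promoter window (horizontal axis) in bins of 5, and the share of windows (percent, vertical axis) for detected (orange bars) and undetected genes (grey bars) on the array. Triangles mark the 13 windows of the members at an arbitrary height, orange where detected, grey for ANO1 and white for ANO2, which has no value, and show ANO6 at 2 CG and ANO1 at 36.

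Other members of the anoctamin family were set against the same baseline. For every list that follows, the share of all named genes detected, 52.7%, is the background. Of 6 further anoctamins 1 was detected, ANO5, a muscle anoctamin whose mutation causes limb-girdle dystrophy, at 1.55 ± 0.42 log2 units (SD, n = 4) and above the baseline on all 4 arrays. ANO8, which tethers the endoplasmic reticulum to the plasma membrane, ran from -1.28 to -0.71 over the 4 arrays, and ANO4 was at -1.15 ± 0.32 (SD, n = 4). ANO7 was at -2.61, ANO9 at -3.28 and ANO3 at -3.34, in the range of ANO1 or lower. The count was 3 of 6 under each of the lower baselines.

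Chloride channels of other families at the cell surface gave 2 detected genes of 13, against 52.7% of all genes. They were TTYH3 at 3.18 ± 0.82 and BEST1 at 0.48 ± 0.62 (SD, n = 4 for each), members of the tweety and bestrophin families. BEST1, itself a calcium-activated chloride channel, exceeded the baseline on 3 arrays and did not pass the limma threshold (adjusted p = 0.182). CFTR, the cyclic AMP-gated channel mutated in cystic fibrosis, was at -3.67 ± 0.31, and the swelling- and voltage-gated CLCN2 at -0.51 ± 0.47 (SD, n = 4 for each). PACC1, the acid-activated chloride channel, was at -2.33 ± 0.59 (SD, n = 4). The count was 1 when all 4 arrays had to be above the baseline or by limma, and 7 without SPATA5 and SPATA13.

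The intracellular CLC transporters, which exchange chloride for protons in endosomes and lysosomes, and their partners gave 5 of 7, against 52.7% of all genes, and limma called 4. CLCN3, once proposed as a swelling-activated channel, was at 3.24 ± 0.67, CLCN6 at 1.83 ± 0.72 and CLCN5 at 1.12 ± 0.85 (SD, n = 4 for each). CLCN4 was at 0.14 ± 0.55 (SD, n = 4, limma adjusted p = 0.667). OSTM1, the partner of CLCN7, was at 1.10 ± 0.91, while CLCN7 itself was at -0.65 ± 1.14 (SD, n = 4 for each). Of 6 CLIC proteins, which exist in soluble and membrane forms, CLIC1 and CLIC4 were detected (33.3%, against 52.7% of all genes), both at 4.04, and the other 4 lay below the baseline on every array.

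**Figure D5:**
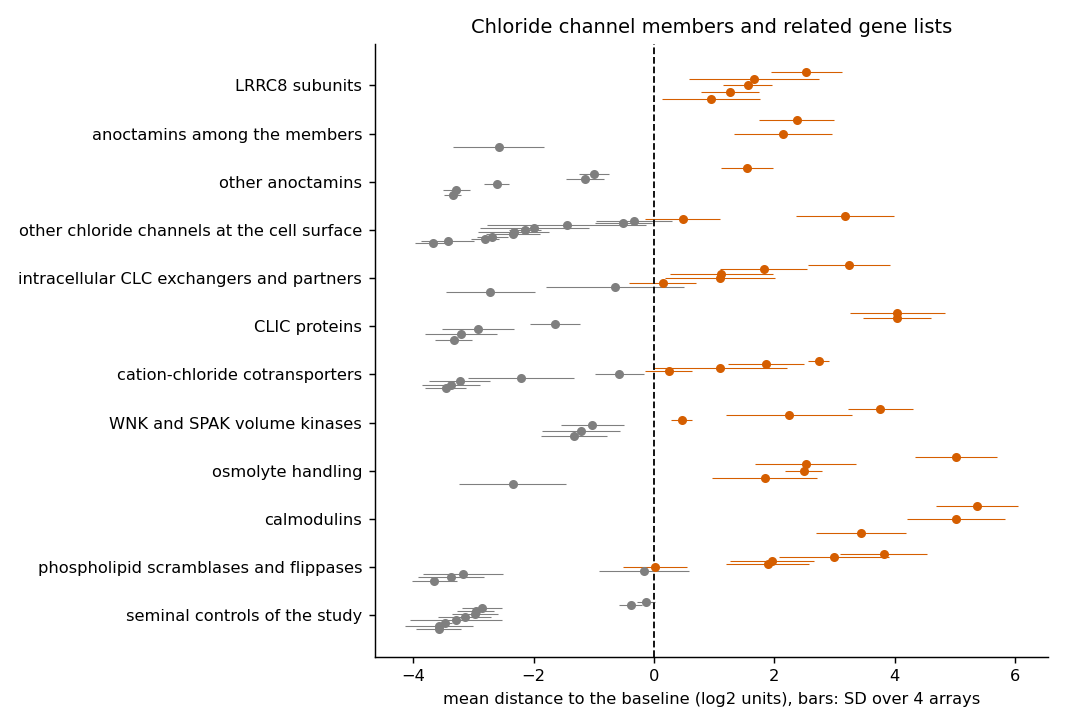
Mean distance to the baseline (log2 units, horizontal axis) of every matched gene in each list (rows), with the SD over 4 arrays as bars, orange where the mean is above 0 and grey where it is not. All 5 LRRC8 genes are above the dashed baseline, whereas 1 of 6 other anoctamins and 2 of 13 other surface chloride channels are.

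Genes that set cell chloride and volume together with VRAC were also measured. Of 9 cation-chloride cotransporters 4 were detected (44.4%, against 52.7% of all genes). The inward cotransporter SLC12A2 (NKCC1), which loads cells with chloride, was at 1.09 ± 1.11 (SD, n = 4), with -0.42 on replicate 3. Of the outward cotransporters, which act in volume decrease, SLC12A7 (KCC4) was at 1.86 ± 0.63 (SD, n = 4), and SLC12A4 (KCC1) was at -0.57 and SLC12A5 (KCC2) at -3.46. SLC12A9 was at 0.24 (limma adjusted p = 0.484). The WNK and SPAK kinases, which regulate these cotransporters, gave 3 of 6, near that share, with OXSR1 at 3.76 ± 0.54, STK39 (SPAK) at 2.24 ± 1.05 and WNK1 at 0.46 ± 0.18 (SD, n = 4 for each). WNK1 was above the baseline on all 4 arrays but not past the limma threshold (adjusted p = 0.197).

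Osmolyte genes gave 4 of 5 matched, against 52.7% of all genes. AKR1B1, which makes sorbitol, was at 5.02 ± 0.68, the inositol transporter SLC5A3 at 2.52 ± 0.84, the tonicity-responsive factor NFAT5 at 2.49 ± 0.30 and the taurine transporter SLC6A6 at 1.84 ± 0.87 (SD, n = 4 for each). Taurine and inositol are among the osmolytes that VRAC releases. The betaine transporter SLC6A12 was at -2.35 ± 0.89 (SD, n = 4). With the baseline of 3 SD the CLC list gave 2 and the cotransporters 2, and the kinases gave 5 to 6 with the lower baselines.

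ANO6 shares its scrambling role with other proteins, and 5 of 9 genes for scramblases and flippases were detected (55.6%, against 52.7% of all genes). The caspase-activated scramblase XKR8 was at 1.89 ± 0.69, and PLSCR1 at 1.96 ± 0.69 (SD, n = 4 for each). TMEM30A, the partner subunit of flippases that return phosphatidylserine to the inner leaflet, was at 3.00 ± 0.91 (SD, n = 4). PLSCR3 was at 0.02 ± 0.53, on the baseline, and above it on 1 of 4 arrays. XKR4, XKR9 and PLSCR4 lay below the baseline on every array. Together with 3 calmodulin genes, all detected, these lists held 64 matched genes. Of the 64, 29 (45.3%) were detected, against 52.7% of all genes, with a median distance of -0.54 against 0.26. The limma test called 24 of the 64, against 45.9% of all genes.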

How the data were processed

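RNA of 4 HEK293 cultures was hybridised in a single colour (Cy3) to NimbleGen arrays with 3 probes per target, designed on HG18. Deposited values were log2 intensities of single probes, extracted with the maker's software, and the submitters' processing notes name RMA. The 71998 values per array ran from 5.14 to 15.99, and those of replicates 1 and 2, and of 3 and 4, share nearly the same distribution, as if quantile-normalized 2 by 2, a step not given in the sources used here. No coordinates of the array were used.

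Probe accessions, stripped of versions, were looked up in a RefSeq table of GRCh38.p14, which named 19125 of 24000 targets and 17217 genes. A target was log2 of the mean linear value of its probes and a gene the mean of its targets. The baseline used 10 of the 11 seminal genes that the study lists, since PYY2 was not matched. Distances were tested against 0, one-sided, with limma 3.58 in R 4.3 and Benjamini-Hochberg adjustment over all genes at 0.05. The prior degrees of freedom were infinite, so every gene had a standard error of 0.351, and since an array's baseline moves all its genes together the tests were not independent. The smallest p of an exact sign-flip test with 4 arrays is 0.0625. The limma code was tested on simulated data. Labelling was not strand-specific by its description, so antisense transcripts could not be told apart, and depth has no meaning for arrays, whose number limits the precision. Named genes were the members, the controls and the genes of the lists, of which a few are not reported here. Members and lists were chosen with earlier results of these data known. The labels give biological replicates. The p-values measure only a spread between these 4 arrays that is pooled over all genes. They do not use the spread of the gene itself, and they take the baseline of each array as fixed. Alternatives were other baselines, control genes, probe summaries, normalization, array subsets and call rules; leaving out probes was added after the data were seen.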

Additional observations from a re-analysis of the deposited data

Results flagged for a closer look

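Of 40 series of 4 values looked at, which were the level and distance of each of the 8 members and the level of each of their 24 probes, 2 had an array apart from the others by more than the 95% critical value of Dixon's test, whose ratio is the gap over the range. Chance alone gives about 1 in 20. The first LRRC8E probe had a ratio of 0.857, with 10.45 log2 units on replicate 3 where the other arrays gave 12.93 to 13.35. The first LRRC8D probe had a ratio of 0.898, with 13.29 on replicate 2 where the other arrays gave 12.48 to 12.56. The cause was not tested for either, and LRRC8D and LRRC8E were detected without these probes.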

How the results depend on the processing

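The 7 members were detected under every alternative run except the baseline of 3 SD, and ANO1 under none. The baseline of 10.10 log2 units was 8.79 with 1 SD, 11.42 with 3 SD, 7.78 without SPATA5 and SPATA13, 8.02 with olfactory receptor genes and 8.40 from the controls' median and scaled MAD, and 9.91 to 10.32 with 1 array left out. With 3 SD limma called 2 members, LRRC8A was at -0.37 and LRRC8B at -0.057, and LRRC8C, LRRC8E and ANO6 were no longer past the threshold, ANO6 with an adjusted p of 0.0539. With 1 array left out limma called 6 to 7 members, and without a probe of each member 6 to 7. The related lists, with the calmodulins, gave 44 of 64 genes without SPATA5 and SPATA13, and 27 to 30 with 1 array left out. All genes detected numbered 9074, from 6731 with 3 SD to 12747 without SPATA5 and SPATA13. With a trend and a robust prior limma called the same 7 members, with LRRC8A at an adjusted p of 0.0199. The causes were not tested. No paired analysis was possible because the design holds 1 group. Signals near the baseline, such as those of LRRC8A, and any low message for ANO1 are what 4 arrays resolve least.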
